A study of Mus musculus with 2 samples.

Results

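The miR-148 and miR-152 family of the mouse consists of 3 miRNA genes, Mir148a, Mir148b and Mir152, and its reads were examined in forebrain of embryos of the B6NCrl strain at 12.5 days. The genes were taken by name, by matching the Ensembl identifiers of the count tables to the mouse GENCODE annotation, and all 3 of 3 had a row among the 1973 miRNA genes of the tables. MicroRNA sequencing had been carried out on RNA below 30 nt from 2 biological replicates of 1 group, labelled healthy, with males and females pooled. Replicate 1 was a pool of 120 embryos and replicate 2 a pool of 68, and each pool gave 1 library. The labels give no second tissue, age or treatment, so the data address how much each family gene was read and how far the pools differed.

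MicroRNAs are cut from hairpin precursors and guide Argonaute proteins to messenger RNAs, chiefly through the seed, bases 2 to 8 counted from 1 at the 5′ end. miRNAs that share a seed are therefore grouped as a family, whatever the place of their genes. The miR-148 and miR-152 family is known for targeting transcripts of the DNA methyltransferase genes Dnmt1 and Dnmt3b, and miR-148a also for the LDL receptor transcript in liver. miR-148a is known as an abundant miRNA of liver and pancreas.

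The mature 3p miRNAs of the family are shown because they carry the shared seed, in capitals, and because the bases outside it are what separates their reads. The sequences and those below are from RefSeq on GRCm38.p6, where all 3 genes matched.
miR-148a-3p: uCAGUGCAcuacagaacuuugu
miR-148b-3p: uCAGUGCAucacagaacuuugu
miR-152-3p: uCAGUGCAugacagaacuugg

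Of 1738 mature miRNAs in the RefSeq table, these 3 were the ones with this seed at bases 2 to 8. Against miR-148a-3p, miR-148b-3p carries C9U and U10C, and the other 20 of 22 bases are identical. Against miR-148a-3p, miR-152-3p carries C9U, U10G and U20G over 21 compared bases, and it is 1 base shorter. Between miR-148b-3p and miR-152-3p the differences are C10G and U20G. The differences therefore fall next to the seed and near the 3′ end. Among 2201 other hairpins of the annotation, on either strand and without gaps, the closest place to each 3p sequence was in another family member, with 2 mismatches, and none was identical. A full-length 3p read free of errors thus matches 1 of the genes better than the others. The aligner and its settings were not given in the sources used here, and the rest of the genome was not searched.

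The other arm of each hairpin gives a 5p miRNA, which is less alike between the genes. The 5p sequences are shown with bases 2 to 8 in capitals.
miR-148a-5p: aAAGUUCUgagacacuccgacu
miR-148b-5p: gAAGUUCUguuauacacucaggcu
miR-152-5p: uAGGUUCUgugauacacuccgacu

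miR-148a-5p and miR-148b-5p share a seed and miR-152-5p has another. Aligned end to end, the 3p miRNAs of Mir148a and Mir148b were identical at 90.9% of positions and their 5p miRNAs at 75.0%. For Mir148a and Mir152 the values were 81.8% for the 3p and 79.2% for the 5p miRNAs, and for Mir148b and Mir152 they were 86.4% and 79.2%. The counts are given per gene, so reads of the arms cannot be told apart, and a level below belongs to a gene and not to a mature miRNA.

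The hairpins are shown with the 3p miRNA in capitals, because they are the features over which reads were counted.
Mir148a: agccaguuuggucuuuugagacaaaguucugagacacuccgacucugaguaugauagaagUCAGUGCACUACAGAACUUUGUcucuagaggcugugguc
Mir148b: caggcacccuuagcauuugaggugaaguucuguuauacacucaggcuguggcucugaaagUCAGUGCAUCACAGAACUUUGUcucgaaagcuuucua
Mir152: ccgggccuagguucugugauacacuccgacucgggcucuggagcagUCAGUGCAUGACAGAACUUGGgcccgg

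The annotated hairpins measure 99 bases for Mir148a, 97 for Mir148b and 73 for Mir152. Outside the mature miRNAs they diverge, and aligned end to end the hairpins of Mir148a and Mir148b were identical at 68.9% of positions. Mir152 was identical to Mir148a at 58.4% and to Mir148b at 59.6%. The longest stretch that 2 of the hairpins share is acagaacuuugucuc, 15 bases in Mir148a and Mir148b, which is shorter than a mature miRNA. Mir152 is the richest in G and C, at 61.6% against 45.5% in Mir148a and 45.4% in Mir148b. Its predicted minimum free energy, from ViennaRNA, was -43.5 kcal/mol, with -41 for Mir148a and -30.9 for Mir148b. Per base these were -0.596 for Mir152, -0.414 for Mir148a and -0.319 for Mir148b. The structure predicted for Mir148b was not a hairpin with 1 terminal loop, whereas those of Mir148a and Mir152 were.

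The family held a small share of the assigned reads in forebrain. Its genes held 2783 of 4333194 assigned reads in replicate 1 and 2909 of 4397107 in replicate 2. This is 642 and 662 counts per 1000000 assigned reads (CPM), or 0.0652% ± 0.00137 of assigned reads (SD, n = 2). The exact 95% binomial interval was 0.0619% to 0.0667% in replicate 1 and 0.0638% to 0.0686% in replicate 2. The intervals overlap, and the share of the family was not tested between the pools. All intervals given here cover counting error only, and they treat reads as independent. Reads made by PCR without molecular identifiers are not independent molecules, so the intervals may be too narrow.

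Mir148a (ENSMUSG00000065505.1) maps to the minus strand of chromosome 6, bases 51269812 to 51269910 (mm10). It had 1307 reads in replicate 1 and 1383 in replicate 2, or 302 and 315 CPM. CPM is not divided by length here, since a miRNA read covers a mature miRNA and not the hairpin. The mean was 308 ± 9.12 CPM (SD, n = 2), which placed it at rank 166 of 1973 genes, 763 of them with reads. The 95% Poisson intervals were 285 to 318 CPM and 298 to 332 CPM, and they overlap.

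Mir148b (ENSMUSG00000065560.1) maps to the plus strand of chromosome 15, bases 103285125 to 103285221. It had 1295 reads in replicate 1 and 1263 in replicate 2, or 299 and 287 CPM, with a mean of 293 ± 8.22 CPM (SD, n = 2) and rank 170. Its intervals, 283 to 316 CPM and 272 to 304 CPM, overlap too.

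Mir152 (ENSMUSG00000065515.1) maps to the plus strand of chromosome 11, bases 96850393 to 96850465. It had 181 reads in replicate 1 and 263 in replicate 2, or 41.8 and 59.8 CPM, with a mean of 50.8 ± 12.8 CPM (SD, n = 2) and rank 252. Its intervals, 35.9 to 48.3 CPM and 52.8 to 67.5 CPM, do not overlap. Mir152 was thus lower in replicate 1 beyond the counting error of reads taken as independent. On the opposite strand the family genes had 0 reads in both libraries, which allows a level of 0.692 CPM at most for replicate 1 and 0.682 CPM for replicate 2, from 3 counts.

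**Figure D1:**
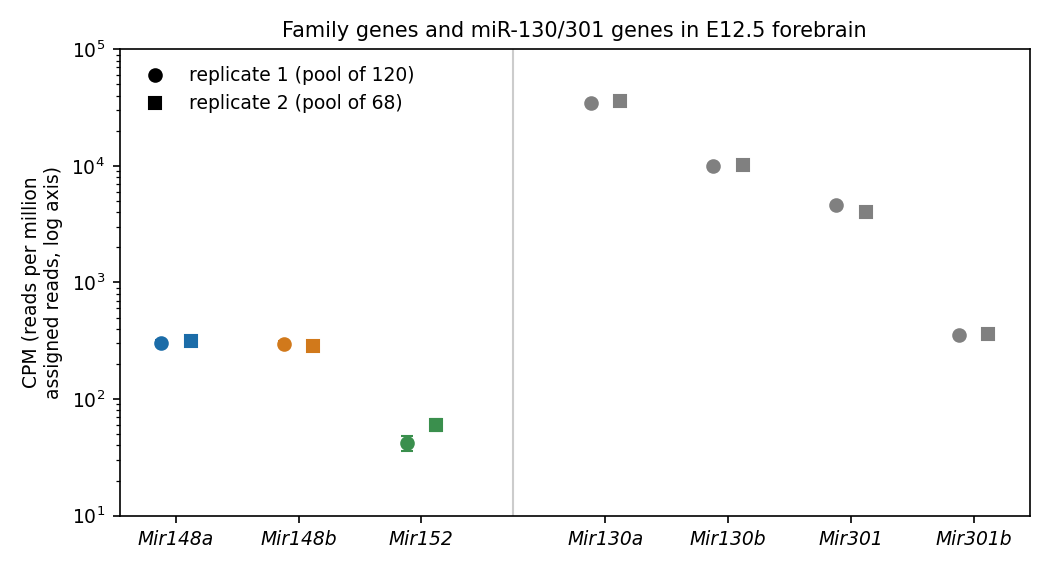
Level of each family gene (colours) and of the miR-130 and miR-301 genes (grey) in replicate 1 (circles) and replicate 2 (squares), in CPM on a log axis, with 95% Poisson intervals for the family genes. Mir148a and Mir148b lie together near 300 CPM, Mir152 lies below both in each library, and Mir130a, Mir130b and Mir301 lie above every family gene.

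The order of the levels was Mir148a, Mir148b, Mir152. With reads taken as independent, its first 2 places differed by more than counting error in replicate 2 and not in replicate 1. Reads of Mir148a over Mir148b gave a ratio of 1.01 in replicate 1, with an exact 95% interval of 0.934 to 1.09, and of 1.10 in replicate 2, with 1.01 to 1.18. Divided by the length of the hairpin genes the ratio was 0.989 in replicate 1 and 1.07 in replicate 2, so on that scale the order depended on the library. Mir148a exceeded Mir152 in reads by 7.22-fold in replicate 1, with an interval of 6.18 to 8.48, and by 5.26-fold in replicate 2, with 4.61 to 6.02. Mir148b exceeded it by 7.15-fold in replicate 1 and 4.80-fold in replicate 2. Per base of the hairpin the ratios of Mir148a to Mir152 were 5.32 and 3.88, and those of Mir148b to Mir152 were 5.38 and 3.61. Mir152 was thus the lowest of the family on both scales and in both libraries. With each ratio taken within a library, the smallest two-sided p of an exact permutation test is 0.5, so these ratios were not tested across pools.

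By share of the family's reads, Mir148a held 47.0% in replicate 1 and 47.5% in replicate 2, a mean of 47.3% ± 0.409 (SD, n = 2). Mir148b held 46.5% and 43.4%, a mean of 45.0% ± 2.20. Mir152 held 6.50% and 9.04%, a mean of 7.77% ± 1.79. The exact intervals of Mir152, 5.62% to 7.48% in replicate 1 and 8.02% to 10.1% in replicate 2, do not overlap. Those of Mir148a do, and those of Mir148b, 44.7% to 48.4% and 41.6% to 45.2%, do so narrowly. Overlap alone does not show that a share was equal in the pools, and the shares were not tested between them. On reads per base of the hairpin the mean share of Mir152 was 10.2% ± 2.29. Most of the family's reads were therefore assigned to Mir148a and Mir148b, in near equal parts.

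**Figure D2:**
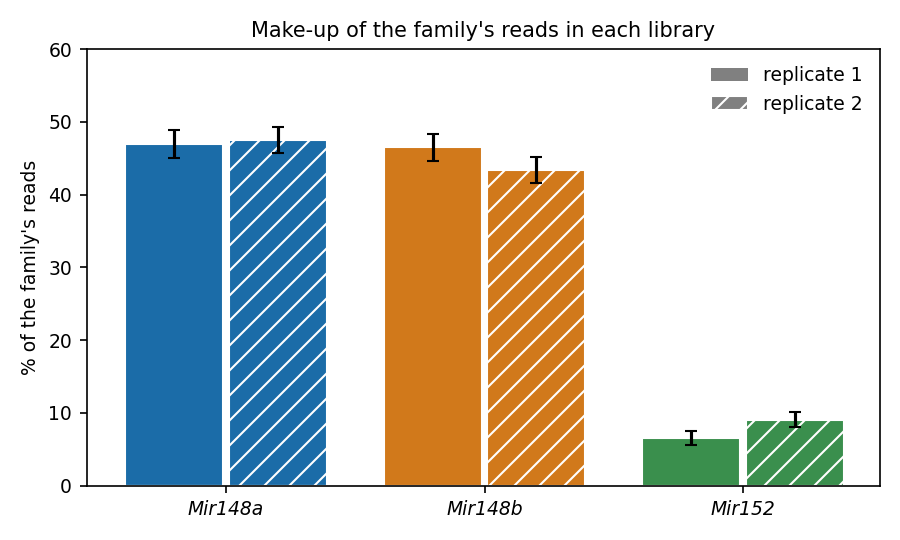
Share of the family's reads held by each gene, in % on the vertical axis, in replicate 1 (plain bars) and replicate 2 (hatched bars), with exact 95% binomial intervals. Mir148a and Mir148b each hold between 43.4% and 47.5%, and Mir152 holds 6.50% in replicate 1 and 9.04% in replicate 2.

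Differences between the pools were tested over the miRNA genes whose reads, summed over the pools, reached 10, which the 3 family genes passed, by a two-sided Fisher's exact test with Benjamini-Hochberg adjustment. The test compares these libraries and no conditions, and like the intervals it treats reads as independent. Of 511 genes tested, 167 passed an adjusted p of 0.05, or 32.7%, and 14 also differed by at least 2-fold in CPM, or 2.74%. Of the family, 1 of 3 genes passed, and none differed by 2-fold, so the share called lies near that of all genes tested. The gene that passed was Mir152, at a log2 ratio of replicate 1 to replicate 2 of -0.51 on log2(CPM + 1), with an adjusted p of 0.000852 by Fisher's exact test. The exact 95% interval of its log2 ratio, without the added 1, was -0.80 to -0.24. Mir148a had a log2 ratio of -0.06, an interval of -0.17 to 0.05 and an adjusted p of 0.460 by the same exact test. Mir148b had a log2 ratio of 0.06, an interval of -0.06 to 0.17 and an adjusted p of 0.509 by the same exact test. By counting error of reads taken as independent, the intervals leave room for a log2 difference of at most 0.17 either way in both genes. The median log2 ratio of the family was -0.06, against -0.04 over the 511 genes.

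The spread between the pools was narrow for Mir148a and Mir148b and wide for Mir152. The coefficient of variation of the 2 libraries was 2.96% for Mir148a and 2.80% for Mir148b, while the median over 128 genes with a mean of 100 to 1000 CPM was 5.85%. Of these genes, 36 varied by no more than Mir148a and 33 by no more than Mir148b, each counted with the gene itself. For Mir152 it was 25.1%, against a median of 12.2% over 45 genes of 30 to 100 CPM, of which 8 varied at least as much, Mir152 included.

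Vascular and mesenchymal miRNAs were among those that differed between the pools in the direction of Mir152. In a list of 8 such genes, 7 passed the test, all lower in replicate 1, where 20.2% of all genes tested were called in that direction. That share is not matched for level, and genes with many reads pass at small differences. Mir140, for one, passed at a log2 ratio of -0.12. The list was chosen with earlier results of these data known. Whether its genes share transcripts was not examined, so the 7 are not taken as separate observations. The median log2 ratio of replicate 1 to replicate 2 was -0.45 in the list, against -0.04 over all genes tested. The summed level of the list was 29858 CPM in replicate 1 and 37313 CPM in replicate 2. Mir126a, a marker of endothelial cells, stood at 16564 and 21180 CPM, and Mir143, of smooth muscle and mural cells, at 5258 and 6487 CPM. Mir214, a mesenchymal miRNA, stood at 3018 and 4075 CPM, and the cartilage miRNA gene Mir140 at 4599 and 4981 CPM. No gene of the list was at 0 in either library, and the lowest, Mir199a-1, named after its values were seen, had 16 and 27 reads. By name Mir199a-1 and Mir199a-2 are copies, and reads that match several places are not in these counts. The levels of both genes are therefore uncertain. Genes outside the lists, named here after their values were seen, differed as much or more. Mir204, Mir449a and Mir1298 were lower in replicate 1 at log2 ratios of -0.74, -0.66 and -0.85, and Mir219a-2 at -0.98. Genes of the epithelial miR-200 group were higher in replicate 1, Mir200a at 1.79, Mir200b at 0.69 and Mir141 at 0.84. The part of any cell type in the difference of Mir152 was not tested. In pooled tissue, fewer cells of a type and less RNA per cell cannot be told apart, and with 1 library for each pool neither can pool and library.

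**Figure D3:**
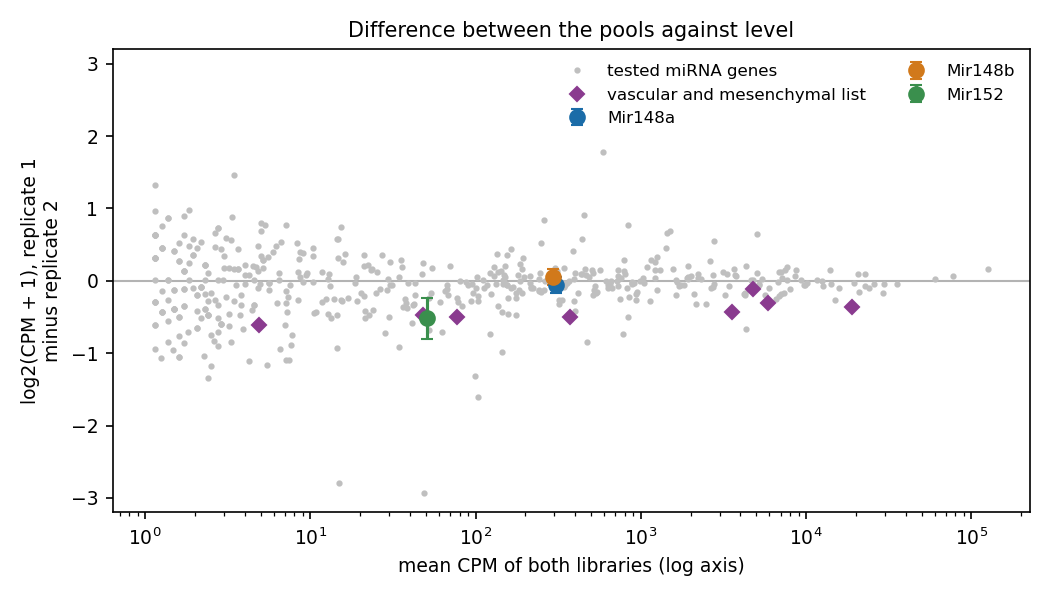
Difference in log2(CPM + 1), replicate 1 minus replicate 2, against the mean CPM on a log axis, for 511 tested miRNA genes (grey), 8 vascular and mesenchymal genes (diamonds) and the family genes (coloured, with exact 95% intervals). Mir148a and Mir148b lie at -0.06 and 0.06, and Mir152 lies at -0.51, below 0 together with all 8 diamonds.

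Genes closest in level were taken as the 2 ranks above and below each family gene, with the difference in mean log2(CPM + 1) over 2 samples as the measure. Around Mir148a stood Mir384 at 310 ± 21.7 CPM and Mir7-2 at 305 ± 0.567 CPM (SD, n = 2), 0.0089 and 0.013 away. Mir195a, of the miR-15 and miR-16 group, and Mir670 lay 0.042 and 0.038 away. Around Mir148b stood Mir670 and Mir679 above, 0.034 and 0.036 away, and Mir700 at 263 ± 0.136 CPM and Mir496a at 259 ± 15.3 CPM below, 0.15 and 0.18 away. Mir148a, Mir384 and Mir7-2 differ by less than the spread of Mir384, so these ranks are not resolved. Around Mir152 stood Mir574 at 39.9 and 64.8 CPM in replicates 1 and 2, Mir8114 at 47.5 and 56.2 CPM, Mir211 at 10.6 and 87.3 CPM and Mir199a-2 at 39.9 and 55.7 CPM. The SD of Mir152 is wider than the distance between its own mean and those of all 4 neighbours. Mir574, Mir8114 and Mir199a-2 lay 0.025, 0.047 and 0.082 away, but Mir211 lay 0.67 away and is not close on this measure. Of these neighbours Mir574, Mir211 and Mir199a-2 were, like Mir152, called lower in replicate 1, at log2 ratios of -0.69, -2.93 and -0.47. Over all genes tested 20.2% were called in that direction. That share is not matched for level. Of the 45 genes of 30 to 100 CPM, 14 were called, Mir152 included, and all of these were lower in replicate 1.

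Mir148b and Mir152 lie inside genes, and their hosts are related. Copz1 and Copz2 encode the zeta subunits of coatomer, the coat of COPI vesicles that carry proteins from the Golgi back to the endoplasmic reticulum. Mir148b lies in intron 1 of Copz1 and Mir152 in intron 1 of Copz2, each on the strand of its host and clear of annotated exons. The intron measures 16159 bases in Copz1 and 676 bases in Copz2. Mir148b starts 12215 bases after the start of transcript Copz1-201, and Mir152 517 bases after that of Copz2-201. In 2 of the 5 annotated Copz2 transcripts the start lies beyond Mir152. Copz1-201 and Copz2-201 have 9 exons each, and 7 of the 9, exons 2 to 8, have the same length in both. Mir148a overlaps no other annotated gene on either strand. The tables hold miRNA genes alone, so the levels of the hosts were not measured here.

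**Figure D4:**
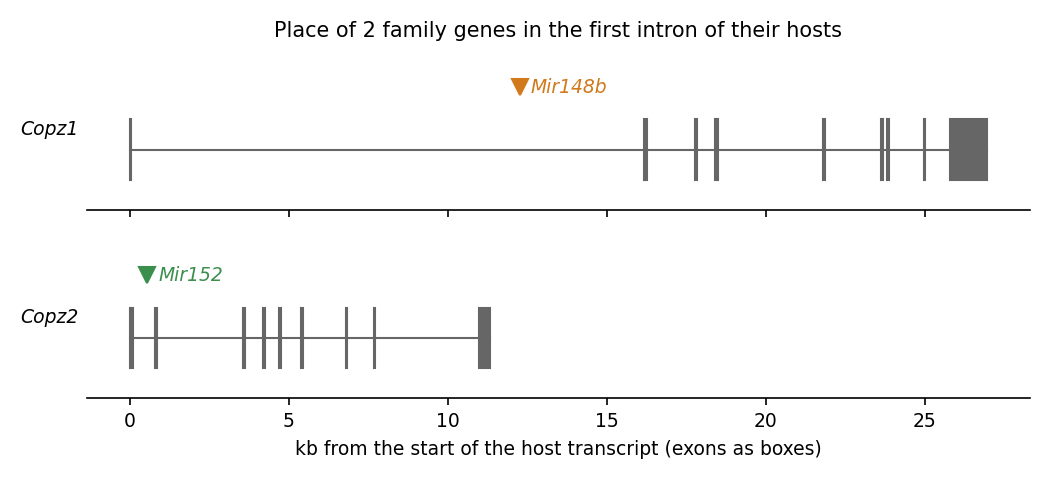
Exons (boxes) of Copz1-201 and Copz2-201 and the place of Mir148b and Mir152 (triangles), in kb from the start of each host transcript. Both miRNA genes lie in the first intron, 12215 bases from the start in Copz1 and 517 bases from the start in Copz2.

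The 3 loci share related genes on their upstream side. Upstream of each gene, in its own direction of transcription, the annotation has a gene of the Nfe2 family of transcription factors, then a Cbx gene, which encodes a heterochromatin protein 1, then a Hox cluster. These flanking genes were chosen after the loci had been examined. For Mir148a they are Nfe2l3 at 163 kb, Cbx3 at 200.4 kb and the Hoxa genes at 886 kb. For Mir148b they are Nfe2 at 26.7 kb, Cbx5 at 45.3 kb and the Hoxc genes at 248 kb. For Mir152 they are Nfe2l1 at 20.4 kb, Cbx1 at 41.8 kb and the Hoxb genes at 482 kb. The order of these upstream genes is thus the same at all 3 loci, and the distances are longest at Mir148a. On the downstream side the nearest coding genes are unlike, Npvf for Mir148a, Gpr84 for Mir148b and Cdk5rap3 for Mir152.

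**Figure D5:**
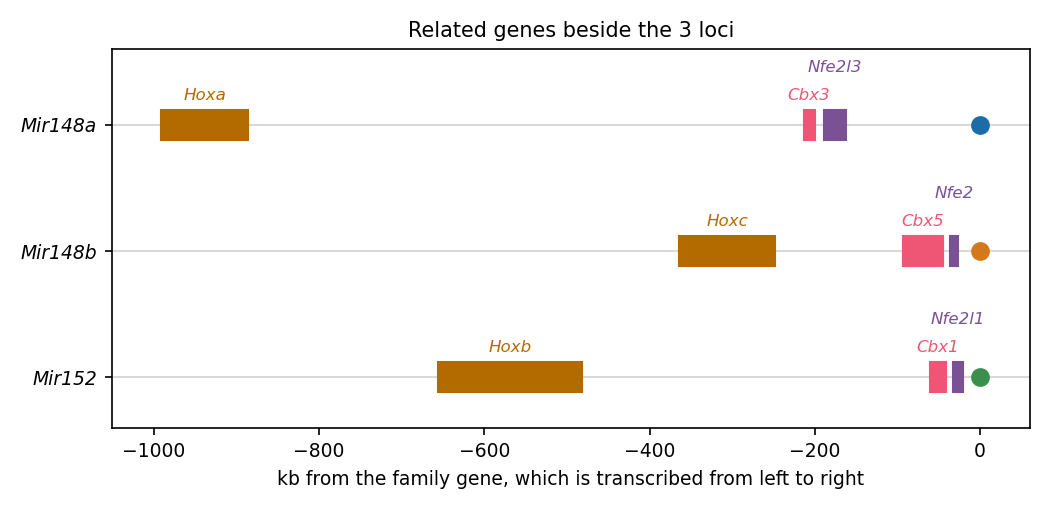
Related genes upstream of the 3 family genes, in kb from each family gene, which is drawn at 0 and transcribed from left to right. At each locus an Nfe2-family gene is nearest, followed by a Cbx gene and a Hox cluster, and the Hox genes begin 886 kb from Mir148a, 248 kb from Mir148b and 482 kb from Mir152.

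The miRNA genes nearest to the family genes on the chromosome, Mir10a aside, were read far less than the family gene beside them. The nearest to Mir148a, Mir6371 at 697 kb and Gm22914 at 352 kb, had 0 reads in both libraries. The nearest to Mir148b were Mir615, in the Hoxc cluster, at 9.92 and 7.28 CPM in replicates 1 and 2, and Mir6963 with 2 reads in each. The nearest to Mir152 were Mir10a, in the Hoxb cluster, at 75.0 and 65.0 CPM, and Mir8103 with 5 and 8 reads. Mir152 itself stood below Mir10a, at 41.8 and 59.8 CPM. The closest of all these nearest genes, Mir6963, lay 65.2 kb away.

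The Hox miRNA genes also served to check the labelled tissue, since Hox clusters are used behind the forebrain. The 6 genes of that list summed to 189 and 176 CPM in replicates 1 and 2. Of the forebrain list 9 genes had a row, and they summed to 25674 and 26273 CPM. Of these, Mir92b, of cortical progenitors, stood at 19420 and 19820 CPM and Mir137 at 5127 and 5286 CPM. Mir92b alone held 75.6% and 75.4% of the sum, and 4 of the 9 genes had a mean below that of Mir152. These were Mir9-2 at 5.31 and 5.91 CPM, Mir124a-2 at 5.54 and 7.05 CPM, Mir124a-3 at 2.08 and 2.27 CPM and Mir124a-1 at 2.54 and 1.36 CPM, named after their values were seen. The mature miR-9 and miR-124 each come from several gene copies, so the levels of these genes are uncertain, and the check of the tissue rests mainly on Mir92b and Mir137. The hepatocyte marker Mir122 stood at 10.4 and 7.73 CPM. The family at 642 and 662 CPM thus lay, as a sum, above the Hox list and far below the forebrain list. Single Hox genes were not all below the family genes. Mir10a at 75.0 and 65.0 CPM and Mir10b at 62.1 and 68.7 CPM lay above Mir152 in both libraries. The other 4 of the 6 had a mean below that of Mir152.

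Genes with a related seed were read far more than the family. Mature miRNAs of the miR-130 and miR-301 group carry the letters of the family seed 1 base earlier, at bases 1 to 7. Their own seed, in capitals, therefore shares 6 of 7 bases with that of the family.
miR-130a-3p: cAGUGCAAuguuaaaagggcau
miR-130b-3p: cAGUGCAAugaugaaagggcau
miR-301a-3p: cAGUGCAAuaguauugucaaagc

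Of the 1738 RefSeq mature miRNAs, 7, or 0.403%, have the family seed at bases 1 to 7. Of their 7 genes 6 had a row, and 3 of these had at least 10 reads in each library. In replicates 1 and 2, Mir130a stood at 34929 and 36072 CPM, Mir130b at 9983 and 10181 CPM, and Mir301 at 4628 and 4020 CPM. Mir130c, Mir6341 and Mir6389 had 0 reads. Mir301b was counted with this group by name, since its mature 3p sequence was not found in RefSeq and its seed was not checked. The family summed to 642 and 662 CPM, against 49894 and 50634 CPM for Mir130a, Mir130b, Mir301 and Mir301b together. The family thus amounted to 1.29% of that sum in replicate 1 and 1.31% in replicate 2, and the lowest of these 4 genes, Mir301b at 354 and 360 CPM, lay above Mir148a in both libraries. The gap is wider than the spread between replicates, and it was not tested.

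Other miRNAs reported to act on DNA methyltransferase transcripts differed widely in level. Of 7 genes listed, 3 had a mean above that of Mir148a and 2 one below that of Mir152. Mir126a stood at 18872 ± 3264 CPM and Mir342 at 12405 ± 14.8 CPM (SD, n = 2). Mir185 stood at 395 ± 53.7 CPM, close above the family genes. Mir29c stood at 190 ± 15.1 CPM, and the 4 miR-29 genes, known for the DNA methyltransferases Dnmt3a and Dnmt3b, summed to 346 ± 29.5 CPM. The family's 652 ± 13.7 CPM was higher than this sum in both libraries, 642 against 366 CPM in replicate 1 and 662 against 325 CPM in replicate 2. Between the pools, 3 of the 7 genes passed the test, where 32.7% of all genes did. Mir126a and Mir185 were lower in replicate 1 and Mir29a, named after its values were seen, was higher. Mir29b-1 and Mir29b-2 give the same mature 3p miRNA, and reads that match several places are tallied in a row of their own, so the levels of both genes and the miR-29 sum are uncertain.

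Of 8 miRNA genes of liver and pancreas, where miR-148a is abundant, 1 had a mean above that of Mir148a and 4 had one below that of Mir152. The list summed to 808 and 719 CPM in replicates 1 and 2. Mir375, of pancreatic islets and some neuroendocrine cells, was highest at 442 and 332 CPM, and Mir217, of the pancreas, stood at 117 and 132 CPM. Mir192 stood at 87.9 and 91.7 CPM and Mir194-2 at 80.3 and 80.5 CPM. By name Mir194-2 and Mir194-1, also in the list, are copies. Reads that match several places were left out, so both levels and the list sum are uncertain. Between the pools 1 of 7 tested genes of the list passed, where 32.7% of all genes tested did. This gene, Mir375, was higher in replicate 1 at a log2 ratio of 0.41, while Mir148a stood at -0.06. Mir122 had 45 and 34 reads in these libraries, and Mir148a had 1307 and 1383.

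The miR-26 genes, which like Mir148b and Mir152 lie in introns of related host genes, the Ctdsp genes, were set beside the family for their make-up. The highest family gene, Mir148a, held 47.0% and 47.5% of the family's reads, while Mir26b held 99.8% of the reads of the 3 miR-26 genes in each library. Mir26a-1 and Mir26a-2 give the same mature miR-26a, so their levels, and with them the share of Mir26b, are uncertain. No such pair is found in the miR-148 and miR-152 family, whose mature sequences had no identical copy among the annotated hairpins. The make-up was not tested between the families, since members are not replicates of a condition.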

How the data were processed

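MicroRNA libraries of 2 forebrain pools of 1 group were analysed. The values are raw gene counts that the authors made from alignments to mm10 with annotation M4, per the deposited notes. Aligner, counter and treatment of multiply matching reads were not given in the sources used here. The deposited counts are for both strands, the gene strand and the opposite strand. The gene-strand column held 97.3% and 97.2% of assigned reads. The 4 rows that name no gene held 61.0% and 60.6% of the reads and were left out, among them 37.9% matching several places in each library.

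Symbols and positions came from GENCODE M21 on the same build, for 1894 of 1973 identifiers. CPM used gene-strand assigned reads, 4333194 and 4397107, and log values used a pseudocount of 1. The labels call the pools biological replicates, and p-values compare these libraries alone. With 1 group no contrast could be fitted with edgeR, so Fisher's exact test was run over all genes with at least 10 reads. Alternatives used TMM (edgeR 4.0.16) and DESeq2 1.42.0 size factors, in R 4.3.3. Python 3.11.15, SciPy 1.17.1, Biopython 1.88 and ViennaRNA 2.7.2 were used. The members, the lists and the rule for named genes were chosen with earlier results of these data known. The rule took the 3 members, up to 4 highest genes in a list, the 2 genes next above and below each member in mean CPM, and the nearest miRNA genes on the chromosome.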

Additional observations from a re-analysis of the deposited data

Results flagged for a closer look

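Reads that matched several places, which the comparisons do not use, numbered 4213961 in replicate 1 and 4224434 in replicate 2. They were picked out as unanalysed data, and they held 37.9% of the reads in each library. How many of them come from the family genes cannot be read from the gene counts.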

How the results depend on the processing

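Of 70 recomputed values, 60 kept their direction and side of the threshold or moved by less than the spread between replicates, and 10 moved further. Some of the 60 could not have moved further, so that count does not measure robustness. Leaving out 1 replicate always shifts a mean by less than the SD of the pools. Without opposite-strand reads the shares within the family stay the same on both strands. The pseudocount does not enter Fisher's exact test. With the most abundant gene left out of the library size, Mir148a stood at 353 CPM, Mir148b at 335 CPM and the family at 0.0746% of assigned reads. With all reads as the denominator they stood at 121 CPM, 115 CPM and 0.0256%, and Mir152 at 19.9 CPM. With both strands counted the family held 0.0634%, because the denominator is larger. Per base of the hairpin, Mir148a held 45.6% and Mir152 10.2% of the family. Over the alternatives, the log2 ratio of replicate 1 to replicate 2 lay between -0.52 and -0.43 for Mir152, with adjusted p by Fisher's exact test between 0.000672 and 0.00244. It lay between -0.06 and -0.02 for Mir148a and between 0.06 and 0.10 for Mir148b, with no call. Between 162 and 178 genes were called. No paired analysis was possible because there was 1 group. Mir152 rests on 181 and 263 reads, the fewest of the family.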
